A study of Caenorhabditis elegans with 2 samples.

Results

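The 39 protein-coding genes of Caenorhabditis elegans whose Ensembl symbols start with eif-, eef-, iff-, ife- or ifg- are described here by the binding regions at their 5' ends, out of 19973 such genes on the 6 nuclear chromosomes. They were picked by symbol, with earlier results of these data already known. By symbol, 33 are initiation factor genes and 6, the eef- genes, are elongation factor genes. The regions come from chromatin immunoprecipitation with sequencing (ChIP-seq), for the forkhead transcription factor FKH-10, in whole larvae of stage L3; the label for the antibody names only fkh-10. The labels give the animals as pooled males and females of strain OP337, genotype unc119(ed3) with the integrated transgene wgIs377, which carries unc119 and encodes FKH-10 with TY1, EGFP and FLAG tags. Both libraries are biological replicates (1 and 2) of this single group, made from 1 transgenic line, and no strain without the tag was analysed here. The regions therefore hold no contrast between conditions, and none of the values below carries a p-value.

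Translation starts when initiation factors load the initiator tRNA and the small ribosomal subunit onto a capped mRNA and find the start codon. Elongation factors then bring in each aminoacyl-tRNA and move the ribosome along. Elongation factors are among the most abundant proteins of a cell, and many initiation factors are subunits of large complexes such as eIF2B and eIF3.

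The sequences at the summits of 5 of these genes are shown first, to let the bases under the regions be read beside the words searched in them. The thresholded list on build ce11 placed a summit within 1 kb of the 5' end of 11 of the 39 genes. Of these summits 9 lie between genes, and the 5 shown are among those 9. The sequences of the other members are not printed here. Each sequence reaches up to 50 bp to either side of the summit, ends where a gene begins, reads 5' to 3' on the strand of the named gene, and is taken from the RefSeq sequence of WBcel235, the same assembly as ce11. Capitals mark matches on either strand to the words searched, which were the forkhead core as GTAAACA or its form ATAAACA, the form GTAAATA or the form ATAAATA (4 forms), the repeat CTCTCTC and the repeat CTTCTTC, the word GAGACGC and an 11-base word described below.
eef-1A.2, chrX:7823166-7823266, plus strand: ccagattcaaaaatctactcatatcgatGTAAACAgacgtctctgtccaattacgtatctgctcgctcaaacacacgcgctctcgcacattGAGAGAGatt
iff-2, chrII:8561396-8561496, minus strand: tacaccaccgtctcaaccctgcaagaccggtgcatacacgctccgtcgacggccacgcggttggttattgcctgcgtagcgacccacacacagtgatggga
eef-1A.1, chrIII:6972033-6972133, minus strand: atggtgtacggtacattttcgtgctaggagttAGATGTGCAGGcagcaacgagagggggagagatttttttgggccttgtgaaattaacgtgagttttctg
eef-1G, chrV:10965631-10965718, plus strand: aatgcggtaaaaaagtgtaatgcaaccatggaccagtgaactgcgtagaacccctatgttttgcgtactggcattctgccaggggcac
eif-3.B, chrII:14795074-14795174, plus strand: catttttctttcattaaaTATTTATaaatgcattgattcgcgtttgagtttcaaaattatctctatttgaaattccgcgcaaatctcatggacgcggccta

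The strongest of the 11 summits, at eef-1A.2, was the only one with GTAAACA. It also held CTCTCTC, printed above as GAGAGAG on the other strand. The replicate summits at eef-1A.2 lay 88 bp apart, at 449 bp upstream in replicate 1 and 361 bp in replicate 2. GTAAACA was not within 50 bp of the summit of replicate 2. The form GTAAATA lay at eif-2Bdelta and ATAAATA at eif-3.B, where it is printed as TATTTAT. The core in any form was thus present within 50 bp of 3 of the 11 summits, against 5.54% of the 2005 thresholded summits and 9.39% of the 30000 pooled summits. Of thresholded summits 1.35% held GTAAACA, and 11.5% held the repeat CTCTCTC. No member summit held CTTCTTC (12.7% of thresholded summits) or GAGACGC (8.63%). With shares of this size, a count of 0 among 11 summits is no result about these genes. Of the pooled summits 4.42% and 1.82% held these words, which were chosen with earlier results of these data known. In windows from 250 bp before to 50 bp after the 5' end, a forkhead form was present at 18 of the 39 genes and at 34.0% of all protein-coding genes. The word GTAAACA itself was in none of these 39 windows (4.78% of all genes), since the match at eef-1A.2 lies farther upstream.

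The summit windows of eef-1A.1 and eef-2 shared a run of 16 bases, the longest run common to any pair among the 11 genes. This run occurs 4 times in the nuclear genome and lay at 3 thresholded summits. Its most frequent 11-base word, CCTGCACATCT, is marked as AGATGTGCAGG in the sequence of eef-1A.1. In both windows the word was centred 13 bp from the summit. It occurs 72 times in the nuclear genome on either strand, and 12 thresholded summits (0.599%) held it within 50 bp, against 16 of the 30000 pooled summits (0.0533%) and 0.0551% of the promoter windows of all genes described above. The other 10 summits include those within 1 kb of rpl-11.2, rps-26 and rpl-33, which encode ribosomal proteins. The summit at rps-26 was shared with tmem-107, and that at rpl-33 with farl-11. Further summits lay by icd-2, by wwp-1, by tba-2, by sec-61.G and F32D8.13, by Y17G7B.20 and ash-2, and by pfd-1 and F01G4.6. For the summit at chromosome I, 6835368, even the nearest gene began farther away than 1 kb. The word was picked after the sequences had been seen, and the genes follow from the word, so the shares describe these summits and test nothing. By contrast, the windows of eef-1A.1 and eef-1A.2 shared no run longer than 8 bases, and the next longest shared run among the 11 genes was 11 bases, between eif-3.B and eif-3.C.

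Elongation factor genes carried a thresholded summit more often than initiation factor genes. Of the 6 elongation factor genes 5 had one (83.3%), namely eef-1A.1, eef-1A.2, eef-1B.1, eef-1G and eef-2. Of the 33 initiation factor genes 6 had one (18.2%), namely eif-2Bbeta, eif-2Bdelta, eif-3.B, eif-3.C, eif-3.H and iff-2. The same rule gave 5.48% of all protein-coding genes and 50 of 81 cytosolic ribosomal protein genes (61.7%). The difference between the classes was not tested, and with 6 elongation factor genes a single gene is worth a large share of the class. The thresholded list consisted of exactly the 2005 strongest regions of the pooled list, so that a gene's place in it followed from its pooled signal alone.

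**Figure D1:**
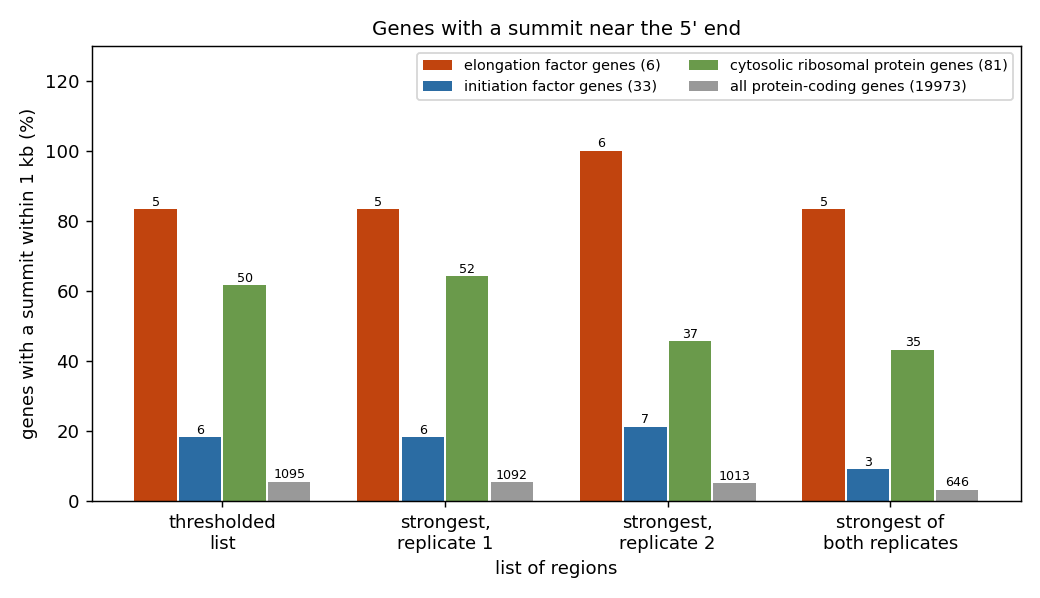
Share of genes with a summit within 1 kb of the 5' end (vertical axis, percent) in the thresholded list, in the strongest regions of each replicate and in those of both replicates, for elongation factor, initiation factor, ribosomal protein and all protein-coding genes. The number above each bar counts the genes, and elongation factors stand at 83.3% in the thresholded list against 18.2% of initiation factors and 5.48% of all genes.

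The signal value, given by the authors' peak caller in units that are not stated, was high at the elongation factor genes. As the pooled signal fixes the thresholded list, its values are not separate from the shares above. In the pooled list the strongest region within 1 kb had a median signal of 57.2 over the 6 elongation factor genes, with a lowest value of 23.9 at eef-1B.2 and a highest of 130.1 at eef-1A.2. Over the 33 initiation factor genes the median was 14.3, counting the 6 genes without a region as 0. By the same rule the median was 34.2 over the 81 cytosolic ribosomal protein genes and 0 over all protein-coding genes. A region of any strength was common, since 33 of the 39 genes (84.6%) had a pooled summit within 1 kb against 49.5% of all genes. These lists come from whole animals, so a strong signal in few cells and a weak one in many cells cannot be told apart.

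**Figure D2:**
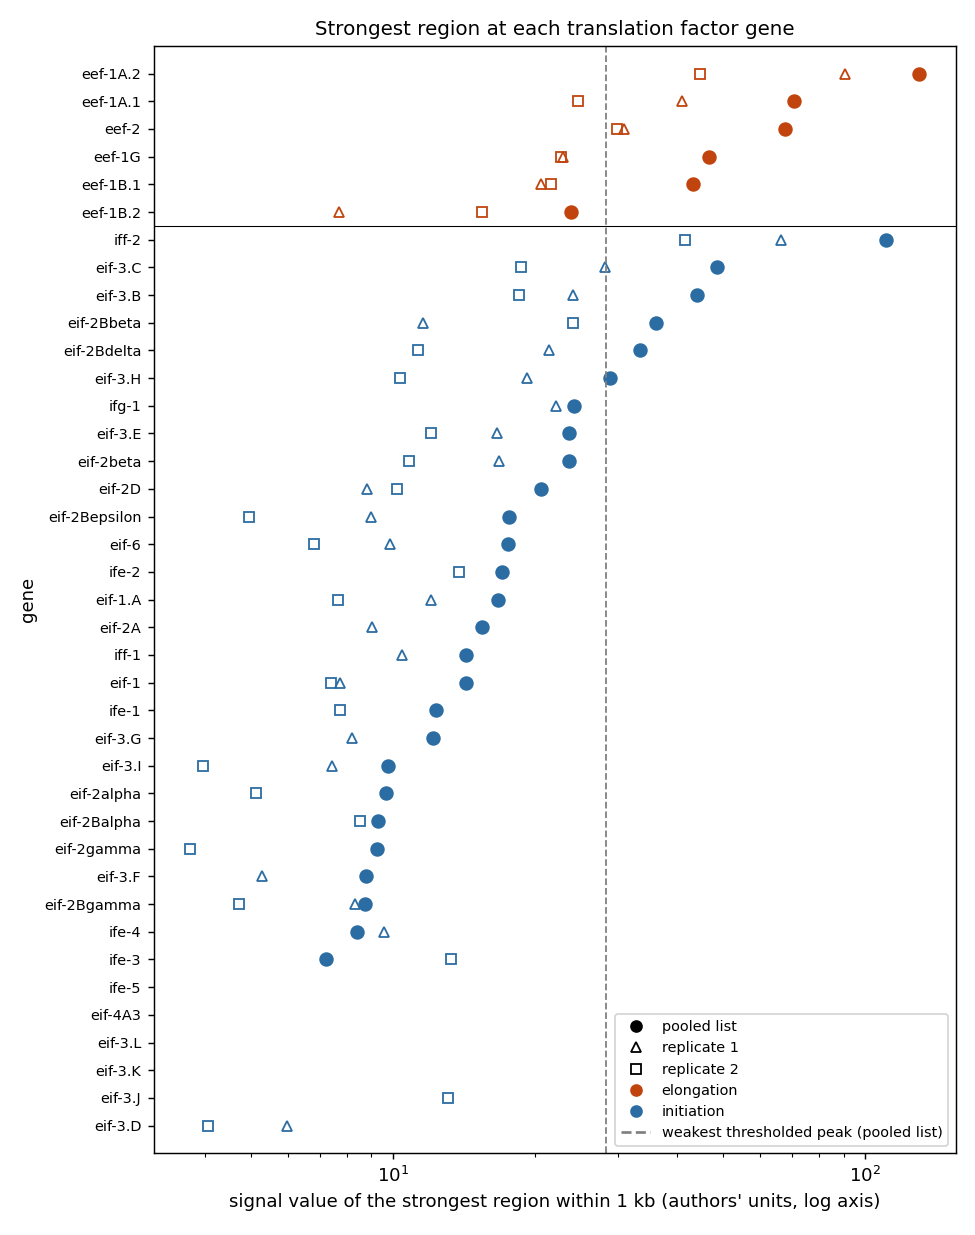
Signal of the strongest region within 1 kb of the 5' end of each gene (horizontal log axis, in the authors' units) in the pooled list and in each replicate, with elongation factors above the line and initiation factors below it. The dashed line at 28.2 marks the weakest thresholded peak, and 5 of 6 elongation factor genes lie to its right in the pooled list; scales differ between lists.

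The paired genes eef-1A.1 and eef-1A.2 encode eEF1A, the GTPase that delivers aminoacyl-tRNA to the ribosome, and their proteins as annotated are identical over all 463 residues. At eef-1A.2 (WBGene00001169, X, 7823654 to 7825769) the signal was 130.1 in the pooled list, rank 13, with 90.6 in replicate 1 (rank 9) and 44.8 in replicate 2 (rank 49). Only 10 protein-coding genes had a stronger region in the pooled list, as eef-1A.2 ranked 11 among them. At eef-1A.1 (WBGene00001168, III, 6970026 to 6971712) it was 70.6 in the pooled list, rank 211, with 40.9 in replicate 1 (rank 269) and 24.6 in replicate 2 (rank 459). The signal at eef-1A.2 was thus higher in both replicates, by 2.21 times in replicate 1, 1.82 times in replicate 2 and 1.84 times in the pooled list. Both summits lay farther upstream than those of the other 9 genes, at 438 bp for eef-1A.2 and 371 bp for eef-1A.1. The eef-1A.1 summit was nearer to the start of rfc-4 (170 bp), which runs in the opposite direction and encodes a subunit of the replication clamp loader, whereas no other gene start lay within 1 kb of the eef-1A.2 summit. Whether reads that map to several places were kept is not given in the sources used here.

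At eef-2 (WBGene00001167, chromosome I, 9163531 to 9166952), which encodes the GTPase that moves the ribosome along the mRNA, the summit lay 13 bp upstream of the 5' end. The signal was 67.8 in the pooled list (rank 246), 30.8 in replicate 1 (rank 660) and 29.9 in replicate 2 (rank 237). The start of clsp-1 on the other strand lay 252 bp from this summit.

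The exchange factor eEF1B, which reloads eEF1A with GTP, is represented by eef-1B.1, eef-1B.2 and eef-1G. At eef-1G (WBGene00008920, V, 10965719 to 10967922), for the gamma subunit, the pooled signal was 46.6 (rank 779), with rank 1286 in replicate 1 and rank 592 in replicate 2. At eef-1B.1 (WBGene00018846, III, 7972382 to 7973386) it was 43.3 (rank 935), with rank 1521 in replicate 1 and rank 676 in replicate 2, and the summit lay 75 bp inside the gene, in an exon outside the coding sequence. The exception in the class was eef-1B.2 (WBGene00012768, IV, 15037331 to 15039551), whose pooled signal of 23.9 put it at rank 2573, below the weakest thresholded peak at 28.2. The replicates differed there, since replicate 2 alone had it at rank 1396 and replicate 1 at rank 11503. The annotated proteins of eef-1B.1 and eef-1B.2 are of unequal length, at 213 and 440 residues, with 60 identical positions in a global alignment.

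The eIF5A genes iff-1 and iff-2 differed more in pooled signal than the eEF1A or eEF1B pairs did. Factor eIF5A was named for initiation and is known to promote peptide bond formation during elongation, and in this worm iff-1 is known for its role in the germ line. At iff-2 (WBGene00002065, II, 8559375 to 8561367) the pooled signal was 110.5, rank 24, with 66.3 in replicate 1 (rank 28) and 41.5 in replicate 2 (rank 68). The summits of the 2 replicates lay 2 bp apart, and the peak was 91 bp wide where the other 10 were 364 bp wide. At iff-1 (WBGene00002064, III, 9745862 to 9747193) the pooled signal was 14.3 (rank 6292), with 10.5 in replicate 1 (rank 5483) and no region in replicate 2. The pooled signal at iff-2 was 7.75 times that at iff-1, and their annotated proteins share 135 identical residues (83.9% of the shorter). Counted with the elongation factors, the eIF5A genes bring that class to 6 of 8 genes and leave 5 of 31 initiation factor genes.

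The complex eIF3 holds the small subunit ready for the mRNA. Of its 11 genes listed here 3 (27.3%) had a thresholded summit, as had 2 of 5 eIF2B genes (40.0%) and 5.48% of all genes. The shares of these small complexes were not tested against each other. At eif-3.C (WBGene00001226, chromosome I, 9976426 to 9979662) the pooled signal was 48.5, with 28.2 in replicate 1 (rank 827) and 18.7 in replicate 2 (rank 955). At eif-3.B (WBGene00001225, II, 14795404 to 14798235) it was 44.1, with 24.1 in replicate 1 (rank 1171) and 18.5 in replicate 2 (rank 971). At eif-3.H (WBGene00001231, chromosome I, 4444719 to 4446613) it was 28.9, rank 1943 and so just inside the thresholded list, with rank 1734 in replicate 1 and rank 3054 in replicate 2. The remaining subunits were weaker. The pooled signal was 23.6 at eif-3.E, 12.2 at eif-3.G, 9.74 at eif-3.I and 8.76 at eif-3.F. The genes eif-3.D, eif-3.J, eif-3.K and eif-3.L had no pooled region within 1 kb, although eif-3.J had one at rank 1901 in replicate 2, at 989 bp upstream, and eif-3.D had weak ones at rank 19549 in replicate 1 and rank 24570 in replicate 2. Subunits of a single complex therefore ranged from rank 698 to no region at all.

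The eIF2B genes, for the exchange factor that reloads eIF2 with GTP, were split between the replicates. At eif-2Bbeta (WBGene00012950, chromosome I, 11891576 to 11893727) the pooled signal was 36.04, with 11.6 in replicate 1 (rank 4367) and 24.04 in replicate 2 (rank 495). At eif-2Bdelta (WBGene00008670, V, 9513824 to 9517649) it was 33.4, with 21.4 in replicate 1 (rank 1444) and 11.3 in replicate 2 (rank 2524), and the 2 replicate summits lay 108 bp apart. Each of these genes thus fell within the 2005 strongest regions of a single replicate. The other 3 had pooled signals of 17.7 (eif-2Bepsilon), 9.31 (eif-2Balpha) and 8.75 (eif-2Bgamma). The genes of eIF2 itself, which carries the initiator tRNA, had no thresholded summit. As only 5.48% of all genes had one, this absence is no result about so few genes. Their pooled signals were 23.6 at eif-2beta, 9.67 at eif-2alpha and 9.25 at eif-2gamma.

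None of the 5 genes for eIF4E, which binds the mRNA cap, had a thresholded summit within 1 kb, where 5.48% of all genes had one, so that a count of 0 among 5 is no result about these genes. The pooled signal was 17.0 at ife-2, 12.3 at ife-1, 8.38 at ife-4 and 7.22 at ife-3, and ife-5 had no region in any list. Replicate 2 alone placed ife-2 at rank 1704 and ife-3 at rank 1858, where replicate 1 had no region within 1 kb of either. For ife-3 a thresholded summit lay just past the limit, at 1122 bp, and replicate 1 had its own at 1198 bp. The scaffold gene ifg-1, for eIF4G, showed the opposite pattern, with rank 1366 in replicate 1, no region in replicate 2 and a pooled signal of 24.2. The genes eif-1 and eif-1.A, for factors of the start codon search, had pooled signals of 14.3 and 16.7. The pooled signal was 20.6 at eif-2D and 15.4 at eif-2A, for factors of less common routes of initiation, and 17.6 at eif-6, which keeps large ribosomal subunits from joining too early.

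No region lay within 1 kb of 4 genes in the pooled list or in either replicate's list. These were eif-3.K, eif-3.L, ife-5 and eif-4A3, the last of which carries an initiation factor's name but is known for marking exon junctions. They make up 10.3% of the 39 genes, against 28.6% of all protein-coding genes. All 6 elongation factor genes had a region in the pooled list and in the list of each replicate.

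The replicates were compared by the regions that each held. Among the 2005 strongest regions of its own list, replicate 1 had a summit at 11 of the 39 genes (5.47% of all protein-coding genes had one) and replicate 2 at 13 (5.07% of all genes). Both replicates held 8 of them (3.23% of all genes), namely eef-1A.1, eef-1A.2, eef-1B.1, eef-1G, eef-2, eif-3.B, eif-3.C and iff-2, and all 8 had a thresholded summit. Only replicate 1 held eif-2Bdelta, eif-3.H and ifg-1, and only replicate 2 held eef-1B.2, eif-2Bbeta, eif-3.J, ife-2 and ife-3. At ife-3 this rested on the 1 kb limit, as the strongest summit of replicate 1 lay 1198 bp upstream (rank 893) and that of replicate 2 at 948 bp. In the full lists, replicate 1 had a region at 28 genes (48.7% of all genes had one), replicate 2 at 29 (48.0% of all genes), and both at 22 (56.4%, against 28.6% of all genes). Across those 22 genes the signals of the replicates correlated with rho = 0.840 by rank (Spearman) and r = 0.850 on the log2 scale (Pearson). Over the 11 genes with a thresholded summit alone they were rho = 0.7 and r = 0.695. These are correlations across genes, not samples, and both libraries share the sequence of each promoter. The strongest region of a gene was not always the same one in both replicates. The summits lay 1706 bp apart at eif-3.I, 1098 bp at eif-2Bgamma, 873 bp at eif-2beta, 780 bp at eif-3.D and 422 bp at eif-6. All of these genes are among the 22 in the correlation.

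**Figure D3:**
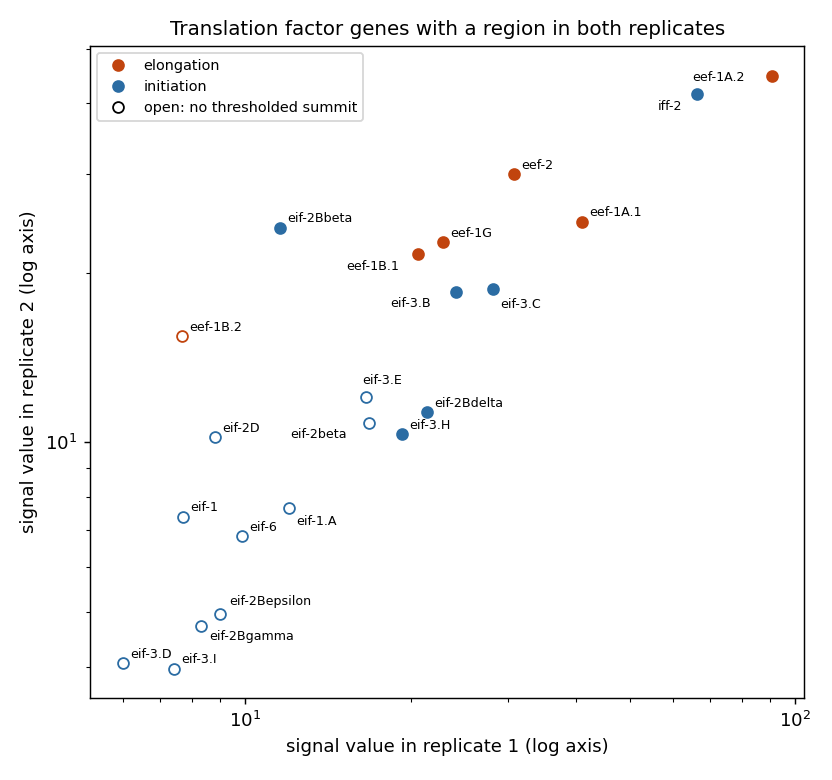
Signal in replicate 1 (horizontal log axis) against replicate 2 (vertical log axis) for the 22 genes with a region within 1 kb in both, with filled points for a thresholded summit. The points for eef-1A.2 and iff-2 stand highest in both replicates. The genes eif-2Bbeta and eef-1B.2 ranked higher in replicate 2 (495 and 1396) than in replicate 1 (4367 and 11503). Scales differ between the lists.

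The summits lay close to the 5' ends. Of the 11 thresholded summits 9 lay upstream, near the share of 85.0% over all pairs of a gene and a thresholded summit within 1 kb. Also 9 lay between genes, and the summits at eef-1B.1 and eif-2Bdelta (56 bp inside the gene) lay in exons outside the coding sequence. The distance to the 5' end had a median of 124 bp, against 290.5 bp over those 1140 pairs in the whole genome, and all 11 were within 500 bp, as were 72.3% of the pairs. By class the median distance was 75 bp for the 5 elongation factor genes and 168 bp for the 6 initiation factor genes. The farthest summit inside 1 kb was that of eef-1A.2, at 438 bp, and the nearest outside lay 1122 bp from ife-3 with a signal of 40.0, followed by 1 at 1972 bp from eif-6 (signal 48.1). The share of G and C in the 101 bases around the summit ran from 29.7% at eif-2Bdelta to 60.4% at iff-2, with a median of 43.6%, the same as over all thresholded summits.

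**Figure D4:**
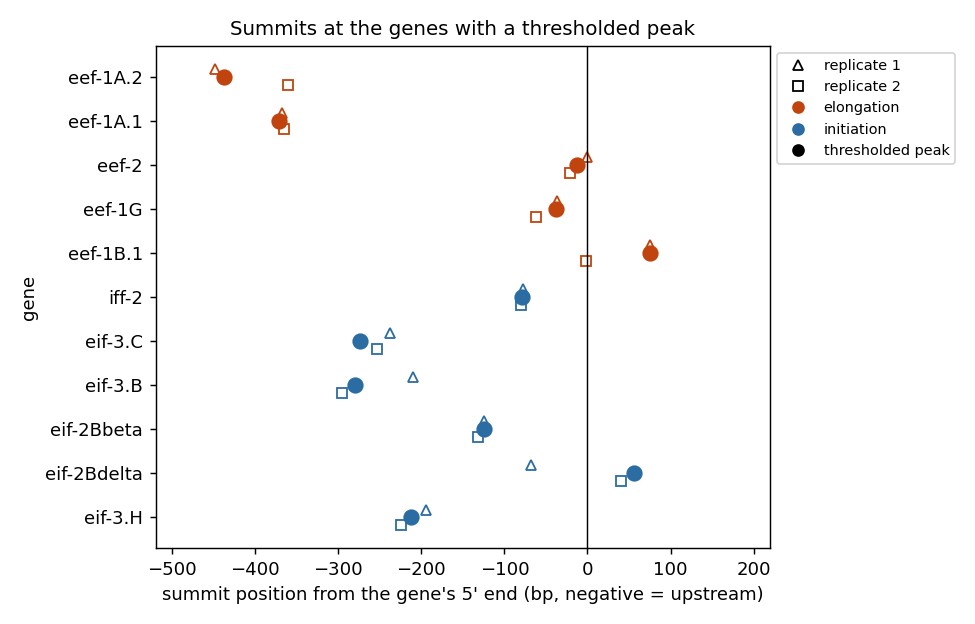
Position of the summit relative to the gene's 5' end (horizontal axis, bp, negative upstream) for the 11 genes with a thresholded peak, with the strongest region of each replicate within 1 kb. The summits of eef-1A.1 and eef-1A.2 lie farthest upstream, at 371 and 438 bp, and the replicate summits of eif-2Bdelta are 108 bp apart.

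Some of these summits also lay near the start of a neighbouring gene. For 7 of the 11 genes (63.6%) another protein-coding gene started within 1 kb of the summit, against 50.2% of the 1095 genes with a thresholded summit. These 7 neighbours were all on the opposite strand and pointed away. They were rfc-4 at eef-1A.1, aco-2 (mitochondrial aconitase) at eef-1B.1, ctf-4 at eef-1G, clsp-1 at eef-2, Y47H9C.8 at eif-2Bbeta, C41D11.3 at eif-3.H and F54C9.14 at iff-2. For eef-1A.1, eif-2Bbeta and eif-3.H the neighbour's start was the nearer, so that 8 of the 39 genes (20.5%) had a thresholded summit when each summit was given only to its nearest start, against 4.08% of all genes.

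Genes close behind another gene on the same strand had a thresholded summit less often than the rest, among the 39 genes and among all genes. Many worm genes lie in operons, in which a single promoter serves several genes in a row, but no operon annotation was used here. The distance to the end of the next gene upstream on the same strand, a measure chosen after the values had been seen, was at most 1 kb for 13 of the 39 genes. Of these 13 only eif-3.C (gap 401 bp, from sys-1) had a thresholded summit (7.69%), against 10 of the other 26 (38.5%). Among initiation factor genes alone it was 1 of 12 with such a gap (8.33%) against 5 of 21 without (23.8%). Among elongation factor genes it was 0 of 1 against 5 of 5, so gap and class overlap in the counts for the 39 genes. Over all protein-coding genes the shares were 3.12% with such a gap and 6.44% without. A pooled region was present at 10 of the 13 genes (76.9%) and at 23 of the other 26 (88.5%). Over all genes these shares were 46.9% and 50.5%. The 13 include eif-3.F (gap 116 bp), ife-5 (65 bp), eif-2alpha (133 bp) and eef-1B.2 (295 bp), the elongation factor gene without a thresholded summit. The counts are small, and whether the gap bears on any of these genes was not tested.

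Other genes of translation that lack these symbols were described from a list of 29 names, of which 24 were found in the annotation. A thresholded summit lay within 1 kb of 3 of the 24 (12.5%), against 5.48% of all protein-coding genes. They were drr-2 (signal 108.01, rank 27), whose product resembles eIF4H, ifet-1 (signal 73.0, rank 187), for a partner of eIF4E, and pab-1 (signal 29.4), for the poly(A)-binding protein. Each of these summits was shared with the start of a neighbour, that of set-16 at drr-2, of rps-1 at ifet-1 and of rpl-30 at pab-1. The other 21 had none, as had 18878 of the 19973 protein-coding genes. Among the 21 were inf-1, egl-45, iffb-1 and cif-1, which encode eIF4A, eIF3a, eIF5B and eIF3m, and the release factor genes erfa-1 and erfa-3.

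Across the whole series the tagged gene gave no check of the strain, since no region in the 4 lists on ce11 lay within 20 kb of the 5' end of fkh-10. Each list had 1 region within 1 kb of the 5' end of unc-119, the gene that the labels give as part of the transgene. The signal values ran from 28.2 to 182 in the thresholded list, and their median was 6.83 in the list of replicate 1 and 5.36 in that of replicate 2, so values were compared within a list only. The number of reads behind each list is unknown.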

How the data were processed

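FKH-10 ChIP-seq regions from 2 biological replicates of L3 larvae were read from narrowPeak lists on ce11. Per the deposited descriptions of the files, the authors called regions for each replicate and for the pooled alignments against a control alignment, and derived the thresholded list from these by the irreproducible discovery rate. The deposited signal value of each region has no stated scaling. The deposited −log10 q-value was not used for any result. No source used here names the aligner, the caller or their versions, and the depth is unknown.

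Summits were set against the 5' ends of protein-coding genes in Ensembl release 115 (WBcel235). A gene was counted when any summit lay within 1 kb of its 5' end, and where several did, the strongest was taken. Sequences came from the RefSeq WBcel235 genome, and proteins of paralogs were translated from annotated coding exons and aligned with BLOSUM62 (gap penalties 11 and 1, Biopython 1.88). Python 3.11.15, NumPy 2.4.6 and SciPy 1.17.1 were used. Assignment was tested on simulated data, where 200 summits were placed and all 87 within 1 kb of a start among 19973 genes were recovered.

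No test was made, because the series has a single group. The members, gene lists, motifs and alternatives were chosen with earlier results of these data known. Named with values are genes with a thresholded summit, all members of paralog sets and of eIF3, the 10 members with the strongest pooled regions among the rest, those with no region and those with a summit just outside 1 kb. Further members are named after their values were seen, to account for each. The lists on ce10 were not used here.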

Additional observations from a re-analysis of the deposited data

How the results depend on the processing

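Of 35 recomputed counts, 33 stayed within 1.5 times the reported one. Among the 1002 strongest thresholded peaks, 3 initiation factor genes had a summit in place of 6, against 2.72% of all genes in place of 5.48%, while the same 5 elongation factor genes had one. With the full list of each replicate in place of its 2005 strongest regions, 22 genes had a summit in both replicates in place of 8, and the share of all genes went from 3.23% to 28.6%. Windows of 500 bp and 2 kb, the nearest start only and 5' ends of any transcript were tried, as were the eIF5A genes moved to elongation. They gave from 8 to 13 of the 39 genes, from 4 to 8 initiation and from 4 to 6 elongation factor genes. The classes hold 33 and 6 genes, or 31 and 8 with the eIF5A genes moved. The share of all genes ran from 4.06% within 500 bp to 8.12% within 2 kb. The number with a pooled region was 33 and ran from 25 in the 10000 strongest pooled regions (21.2% of all genes) to 36 within 2 kb (69.8% of all genes). Within 2 kb, 9 genes had a summit in both replicates' strongest regions (4.99% of all genes), ife-3 being the one added. Without replicate 1 the counts were 13, 7 and 6 (5.07% of all genes), and without replicate 2 they were 11, 6 and 5 (5.47% of all genes). Without the 13 genes closely behind another gene, an alternative added after the data were seen, 10 of 26 genes had a thresholded summit. Among all genes left by the same rule the share was 6.44%. The 2005 strongest pooled regions gave the reported counts by construction, being the thresholded list. With 1 group and 2 replicates of unknown depth, a missing region does not show that a site was unbound. No paired analysis was possible because the series has a single group.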
